A study of Mus musculus with 12 samples.

Results

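The 9 genes described here encode the 3 TGF-beta ligands (Tgfb1, Tgfb2 and Tgfb3), both signaling receptors (Tgfbr1 and Tgfbr2), a receptor-regulated and an inhibitory Smad (Smad3 and Smad7), and a pair of proteins that hold or release the latent ligand (Itgb6 and Ltbp1). They were taken by gene symbol from a table of 22007 distinct gene identifiers, and each symbol matched 1 row. The whole kidneys of 12 C57BL/6 wild-type mice were sequenced for RNA, 1 library per mouse. The 4 CKD mice ate a 0.2% adenine diet from 8 to 16 weeks of age and were injected with PBS i.p. every week. The 4 CKD+Fe mice ate the same diet and were injected weekly with iron dextran (0.5 g/kg, i.p.), and the 4 control mice ate the diet without adenine and were given PBS. Adenine feeding models CKD by toxic and crystal injury of the tubules, so CKD+Fe and CKD mice share that injury and differ in the injected agent. Mice are named by the numbers in their labels, which give no batch.

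TGF-beta is secreted in a latent form. Furin cuts the precursor, but the cut propeptide stays wrapped around the ligand, and a latent TGF-beta binding protein such as Ltbp1 tethers this complex to the matrix. Integrins that contain the alpha-v chain pull the complex open by gripping an arginine-glycine-aspartate (RGD) motif in the propeptide, and the free ligand then brings Tgfbr2 and Tgfbr1 together, which phosphorylate Smad2 and Smad3. Smad7 is induced by the pathway and blocks the receptors in return. In the kidney the pathway is known for driving matrix production and fibrosis.

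The site that the integrins grip can be read in the coding sequences of the ligands, and it is shown because Itgb6, the beta-6 chain that pairs with alpha-v, is among the 9 genes. In the longest GENCODE M21 coding transcript of each ligand, in-frame RGD codons were found in 1 place in Tgfb1 and in 1 place in Tgfb3, and in 0 places in Tgfb2. The Tgfb1 codons are 244 to 246 of 390, in exon 5, at chr7:25697142-25697150 on the plus strand of GRCm38. The Tgfb3 codons are 261 to 263 of 412, also in exon 5, at chr12:86062165-86062173 on the minus strand. The Tgfb2 coding sequence has 442 codons. Capitals mark the RGD codons, with 18 coding bases on either side.
Tgfb1: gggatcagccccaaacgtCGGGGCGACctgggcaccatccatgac
Tgfb3: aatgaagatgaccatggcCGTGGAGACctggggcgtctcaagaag

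The promoters of Tgfb1 and Tgfb2 are shown because Tgfb1 was the most abundant ligand and Tgfb2 the one with the largest fold change. Each is the 250 bases before the gene start listed by RefSeq on GRCm38.p6, for Tgfb1 at chr7:25686752-25687001 on the plus strand and for Tgfb2 at chr1:186705990-186706239 on the minus strand. Capitals mark matches on either strand to GGGCGG (a GC box, as bound by Sp1) or to CAGACA (a Smad-binding element). The Tgfb1 promoter held 5 GC boxes and 0 Smad elements, and the Tgfb2 promoter held 0 GC boxes and 1 Smad element. Of 32851 mouse promoters of the same length, 32.7% held a GC box and 17.1% a Smad element. Neither promoter matched TGANTCA, the AP-1 motif held by 6.75% of all promoters, or TGACGTCA, the cyclic AMP response element held by 1.55%. These matches describe letters and do not show binding.
Tgfb1: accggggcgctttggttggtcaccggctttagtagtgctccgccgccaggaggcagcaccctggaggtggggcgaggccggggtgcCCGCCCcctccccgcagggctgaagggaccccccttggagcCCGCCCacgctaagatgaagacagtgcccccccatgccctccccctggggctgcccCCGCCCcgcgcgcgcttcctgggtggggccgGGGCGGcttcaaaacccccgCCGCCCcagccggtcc
Tgfb2: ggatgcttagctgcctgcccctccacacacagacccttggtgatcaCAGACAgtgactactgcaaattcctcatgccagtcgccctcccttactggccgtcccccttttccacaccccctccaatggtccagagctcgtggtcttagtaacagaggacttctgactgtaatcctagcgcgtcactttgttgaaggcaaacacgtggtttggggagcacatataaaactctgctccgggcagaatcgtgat

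Levels are in FPKM, the fragments on a gene divided by its transcript length and by the mapped total of the library, which the authors deposited for each gene and mouse. They are scaled for transcript length, so genes can be compared with each other as well as mice. Groups were compared with limma on log2(FPKM + 1) over 13132 genes, with Benjamini-Hochberg adjustment over all of them and a threshold of 0.05. Most genes were higher in CKD kidneys on this scale. The median log2 fold change of all genes tested was 0.50 in CKD against control mice, and 54.6% of all genes were higher with an adjusted p under 0.05. Kap, a kidney androgen-regulated transcript of the proximal tubule, made up 10.6% to 12.7% of the summed FPKM in control mice and 0.188% to 1.70% in the other 8 mice. After median-of-ratios rescaling the median was 0.011 and 28.7% of all genes were called higher, and after quantile normalization 23.3% were called higher. Rescaled values therefore stand beside the deposited ones.

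Kidney markers fitted the labelled tissue, with proximal tubule transcripts abundant in every mouse, and 3 mice stood apart within their groups. They had the lowest quality weights of the 12 mice (0.206 for CKD mouse 110310, 0.308 for control mouse 042301 and 0.395 for CKD+Fe mouse 042702). The summed FPKM of 7 collecting duct markers was 1986 in control mouse 042301 and 459 to 628 in the other control mice. That of 8 endothelial markers was 486 in control mouse 042301 (212 to 234 in the other controls), 323 in CKD mouse 110310 (164 to 232 in the other CKD mice) and 342 in CKD+Fe mouse 042702 (223 to 271 in the other CKD+Fe mice). Relative depth, read from the steps between low FPKM values against control mouse 012811, was 0.68 to 0.89 in the other 11 mice.

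All 9 genes had their lowest mean level in control mice and their highest in CKD mice, with CKD+Fe mice between them. The share of all genes in this order was not counted, so it is not read as particular to the 9. Most genes were higher in CKD mice, and 50.1% of all genes were below 0 in CKD+Fe against CKD mice. In CKD against control mice 8 of the 9 genes were higher past the threshold, beside the 54.6% of all genes. The counts in this paragraph include Tgfb2 and Tgfb3, which passed the filter only through the CKD and CKD+Fe mice. With a mean of at least 5 FPKM required, which leaves both out, 6 of 7 members were higher. Their median log2 fold change was then 1.15, beside 0.396 for the 9689 genes left. The share of those 9689 genes called higher is not given here, so the count of 6 has no background beside it. The median log2 fold change of the 9 genes was 1.31, beside 0.50 for all genes tested. Rescaling left 6 of the 9 called higher (all 3 ligands, both receptors and Smad3), beside 28.7% of all genes, and quantile normalization also called these 6, beside 23.3%. In 7 of the 9 genes the CKD and control mice did not overlap, a separation with higher CKD values that 44.6% of all genes showed. By mean level in CKD kidneys, the receptors came first (Tgfbr2 51.2 and Tgfbr1 39.9 FPKM), then Tgfb1 (28.6) and Itgb6 (28.5), Smad3 (16.6), Smad7 (11.8), Ltbp1 (7.38), Tgfb2 (5.22) and Tgfb3 (4.17). Neighbors in that order overlapped between mice, except Itgb6 with Smad3 and Smad7 with Ltbp1.

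**Figure D1:**
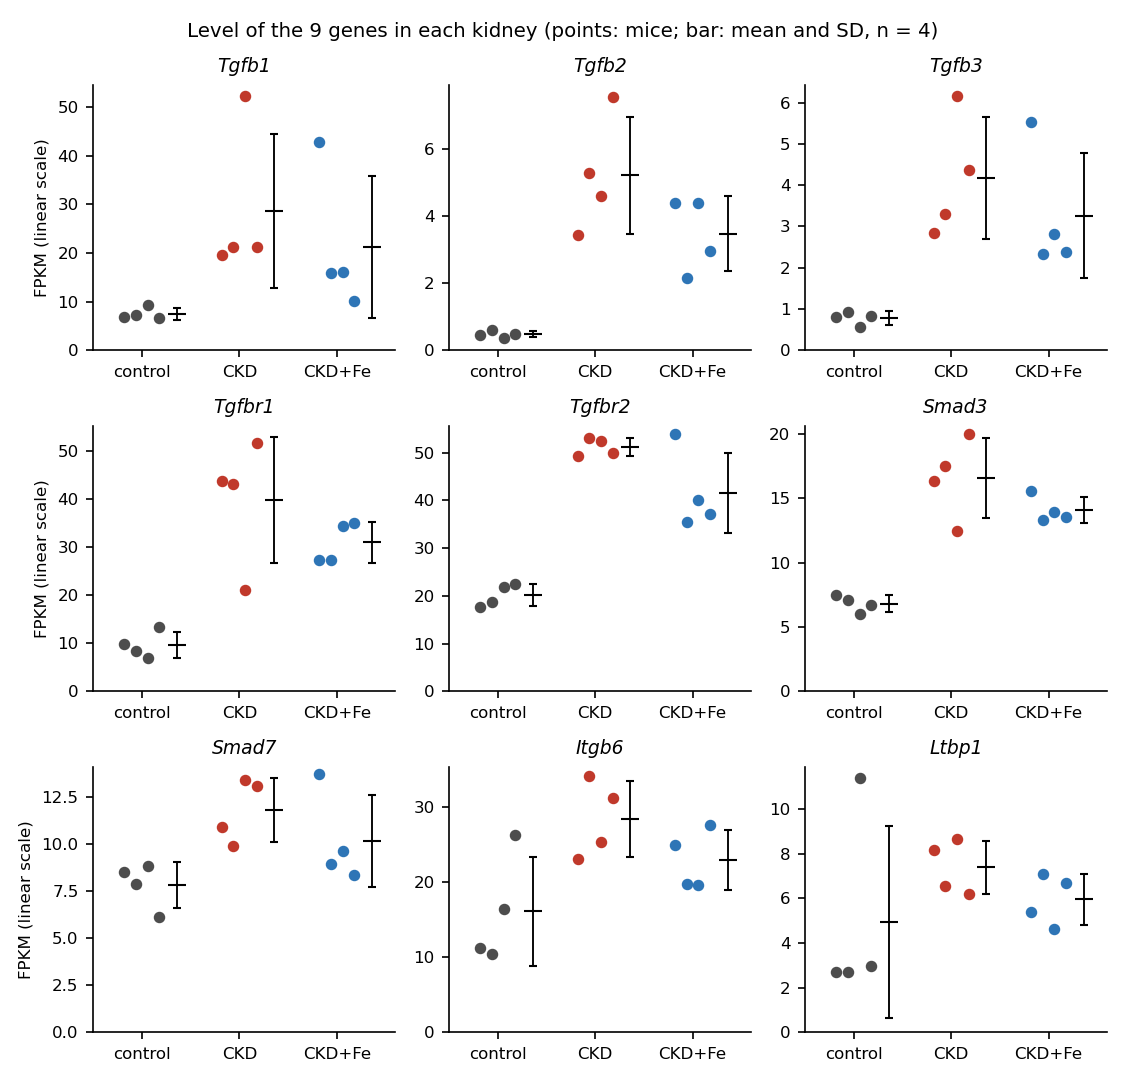
Level of each of the 9 genes in FPKM on a linear axis, with 1 point per mouse (control gray, CKD red, CKD+Fe blue) and the mean and SD of 4 mice beside them. In 7 genes all CKD points lie above all control points, while the CKD+Fe and CKD points overlap in every panel, and single high points stand out for Tgfb1 in CKD (52.4 FPKM) and for Ltbp1 in control mice (11.4 FPKM).

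Tgfb1, the most widely expressed TGF-beta, lies on chromosome 7 at 25687002 to 25705077 of GRCm38. Its levels were 6.80, 7.26, 9.28 and 6.69 FPKM in control mice, 19.6, 21.3, 52.4 and 21.3 FPKM in CKD mice, and 42.8, 15.9, 16.04 and 10.2 FPKM in CKD+Fe mice. All 8 mice with CKD were above the control mice, and 1 mouse in each CKD group, 110310 and 042702, was far above the rest. Between CKD and control mice its log2 fold change was 1.69 (SE 0.37, adjusted p = 0.00125), and it was 1.16 (adjusted p = 0.0158) after rescaling. With any 1 mouse left out it ran from 1.36 to 1.82.

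Tgfb2, a ligand expressed in epithelia and mesenchyme, lies on chromosome 1 at 186622792 to 186705989. Levels were 0.448, 0.597, 0.385 and 0.488 FPKM in control mice, 3.43, 5.29, 4.59 and 7.57 FPKM in CKD mice, and 4.41, 2.15, 4.41 and 2.97 FPKM in CKD+Fe mice. Every CKD and CKD+Fe mouse was far above the highest control mouse. The mean of 5.22 ± 1.74 FPKM (SD, n = 4) in CKD mice was 10.9 times the mean of 0.480 ± 0.0894 FPKM in control mice. On the log2(FPKM + 1) scale, which shrinks changes of low genes, the fold change was 2.03 (SE 0.21, adjusted p = 3.83e-06), the largest of the 9 as deposited and after rescaling (1.74, adjusted p = 9.78e-06). Tgfbr1 had the larger log2 fold change after quantile normalization (1.51 against 1.24 for Tgfb2), with quality weights (2.11 against 2.045), without the 3 mice that stood apart (2.055 against 2.04), without control mouse 042310 (2.06 against 2.04) and without CKD mouse 110310 (2.18 against 2.07). With 0.1 added in place of 1 that of Tgfb2 was 3.15.

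Tgfb3, the ligand best known from palate and lung development, lies on chromosome 12 at 86056745 to 86079041. Levels were 0.803, 0.937, 0.563 and 0.841 FPKM in control mice, 2.84, 3.30, 6.16 and 4.37 FPKM in CKD mice, and 5.52, 2.34, 2.82 and 2.37 FPKM in CKD+Fe mice. Control mice were all below 1 FPKM and all other mice above 2, and mice 110310 and 042702 again had the highest values of their groups. CKD mice were higher by 1.495 on the log2 scale (SE 0.23, adjusted p = 8.73e-05), or by 1.16 after rescaling and 0.68 (adjusted p = 0.037) after quantile normalization. Tgfb2 and Tgfb3 passed the filter of 1 FPKM in at least 4 mice only through the CKD and CKD+Fe mice, so these genes had to differ from control to be tested. Annotated genes overlap both on the opposite strand (among them Ttll5 for Tgfb3), and whether strand was used in the quantification is not given in the sources used here.

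The balance between ligands was compared within each mouse, where scaling between mice cancels. Tgfb1 made up 84.5%, 82.6%, 90.7% and 83.4% of the summed FPKM of the 3 ligands in control mice, 75.7%, 71.3%, 83.0% and 64.1% in CKD mice, and 81.2%, 78.0%, 68.9% and 65.6% in CKD+Fe mice. Tgfb2 made up 5.57%, 6.79%, 3.76% and 6.09% in control mice, 13.3%, 17.7%, 7.28% and 22.8% in CKD mice, and 8.37%, 10.5%, 18.9% and 19.1% in CKD+Fe mice. The share of Tgfb2 was higher in every CKD and CKD+Fe mouse than in any control mouse, and it was lowest in mice 110310 and 042702 within their groups. The mean share of Tgfb2 was 5.55% in control and 15.3% in CKD mice (p = 0.0286 by exact permutation, two-sided, which is the lowest p possible with 4 mice a group). Adjusted over the 15 comparisons of shares and ratios this p was 0.107, which misses the threshold. The share of Tgfb3 was 9.15% ± 2.45 in control mice, 11.2% ± 1.40 in CKD mice and 12.3% ± 2.09 in CKD+Fe mice (SD, n = 4), and the groups overlapped. No share differed detectably between CKD+Fe and CKD mice (exact permutation p of 0.457 to 0.943).

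**Figure D2:**
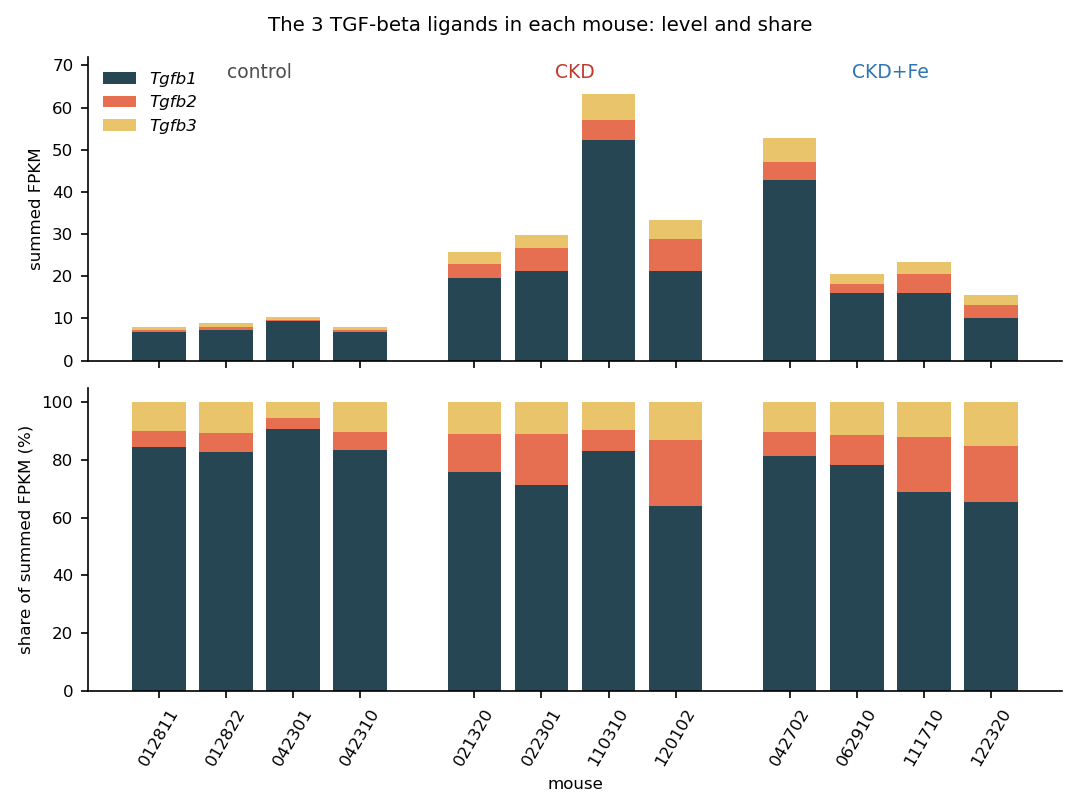
Summed FPKM of Tgfb1, Tgfb2 and Tgfb3 (upper panel) and the share of each in that sum in percent (lower panel), 1 bar per mouse. The sum is 8.02 to 10.2 FPKM in control mice and 15.5 to 63.1 FPKM in the other mice, and the Tgfb2 share is wider in all 8 mice with CKD than in any control mouse.

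Both receptors were higher in CKD mice. Tgfbr1, the type I receptor kinase, lies on chromosome 4 at 47353222 to 47414931. Its levels were 9.78, 8.31, 7.06 and 13.4 FPKM in control mice, 43.7, 43.1, 21.1 and 51.7 FPKM in CKD mice, and 27.3, 27.4, 34.3 and 35.0 FPKM in CKD+Fe mice. CKD mouse 110310, the highest for Tgfb1, was the lowest CKD mouse for Tgfbr1 and still above every control mouse. For Tgfbr1 the log2 fold change was 1.91 in CKD mice (SE 0.25, adjusted p = 2.06e-05), and it was 1.37 after rescaling.

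Tgfbr2, the type II receptor that binds the ligand first, lies on chromosome 9 at 116084293 to 116175360. Levels were 17.6, 18.7, 21.9 and 22.4 FPKM in control mice, 49.3, 53.2, 52.5 and 49.9 FPKM in CKD mice, and 53.9, 35.4, 40.0 and 37.1 FPKM in CKD+Fe mice. The 4 CKD mice lay within 4 FPKM of each other, the tightest group relative to its mean among the 9 genes, and 3 of the 4 CKD+Fe mice were below all of them. In CKD mice the log2 fold change of Tgfbr2 was 1.31 (SE 0.14, adjusted p = 4.33e-06), and it was 0.75 (adjusted p = 0.000231) after rescaling. The log2 ratio of Tgfbr2 to Tgfbr1 within a mouse was 1.10 ± 0.40 in control mice, 0.43 ± 0.60 in CKD mice and 0.41 ± 0.40 in CKD+Fe mice (SD, n = 4). The values of CKD and control mice overlapped, and no difference between them was detected (exact permutation p = 0.143, adjusted p = 0.238).

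Smad3, the receptor-regulated Smad that carries the profibrotic transcriptional response, lies on chromosome 9 at 63646767 to 63757994. Levels were 7.49, 7.11, 5.98 and 6.72 FPKM in control mice, 16.3, 17.5, 12.5 and 20.0 FPKM in CKD mice, and 15.6, 13.4, 13.9 and 13.5 FPKM in CKD+Fe mice. The lowest CKD mouse exceeded the highest control mouse. For Smad3 the log2 fold change was 1.15 (SE 0.14, adjusted p = 1.43e-05), and it was 0.63 (adjusted p = 0.00123) after rescaling.

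Smad7, the inhibitory Smad on chromosome 18, had the smallest fold change of the 9. Its levels were 8.52, 7.87, 8.88 and 6.13 FPKM in control mice, 10.9, 9.92, 13.4 and 13.1 FPKM in CKD mice, and 13.8, 8.99, 9.66 and 8.38 FPKM in CKD+Fe mice. CKD mice were all above control mice, while CKD+Fe mice overlapped both groups. CKD mice were higher by a log2 fold change of 0.54 (SE 0.17 with adjusted p = 0.0119), which is near the median of 0.50 of all genes. It was 0.02 (adjusted p = 0.935) after rescaling and -0.08 (adjusted p = 0.74) after quantile normalization, and it was not called by either.

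The inhibitory Smad was set against the activating one within each mouse. The log2 ratio of Smad7 to Smad3 was 0.186, 0.147, 0.570 and -0.132 in control mice, -0.579, -0.819, 0.107 and -0.608 in CKD mice, and -0.176, -0.572, -0.525 and -0.691 in CKD+Fe mice. CKD mouse 110310 lay among the control mice, and the other 3 CKD mice lay below all of them. The difference of -0.67 between CKD and control means had an exact permutation p of 0.0571 (adjusted p = 0.143). CKD+Fe mice did not overlap control mice (difference -0.68, exact permutation p = 0.0286, adjusted p = 0.107).

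**Figure D3:**
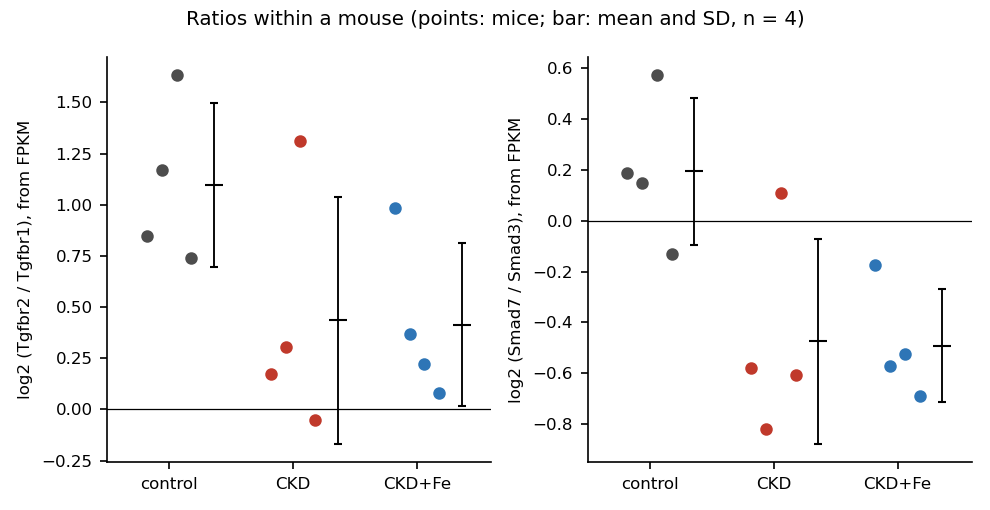
Log2 ratio of Tgfbr2 to Tgfbr1 (left) and of Smad7 to Smad3 (right) in each mouse, from FPKM, with the mean and SD of 4 mice. Both ratios sit lower in most CKD and CKD+Fe mice than in control mice, and CKD mouse 110310 lies within the control range in both panels (1.31 and 0.11).

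Itgb6, the integrin chain that activates RGD-bearing latent ligands in epithelia, lies on chromosome 2 at 60598292 to 60722643. Levels were 11.2, 10.5, 16.5 and 26.3 FPKM in control mice, 23.1, 34.2, 25.4 and 31.2 FPKM in CKD mice, and 25.0, 19.8, 19.6 and 27.6 FPKM in CKD+Fe mice. The groups overlapped, since control mouse 042310 was above 2 CKD mice. Limma gave Itgb6 a log2 fold change of 0.86 in CKD mice (SE 0.24, adjusted p = 0.00656), and it was 0.31 (adjusted p = 0.28) after rescaling.

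Ltbp1, which tethers the latent complex to the matrix, lies on chromosome 17 at 75005568 to 75392512. Levels were 2.72, 2.70, 11.4 and 2.97 FPKM in control mice, 8.15, 6.55, 8.63 and 6.20 FPKM in CKD mice, and 5.38, 7.09, 4.63 and 6.69 FPKM in CKD+Fe mice. One control mouse, 042301, which also had the highest collecting duct, urothelial and endothelial marker sums of the 12 mice, was above all others, and the other 3 control mice were below every CKD and CKD+Fe mouse. With all mice, the log2 fold change of Ltbp1 in CKD mice was 0.71 (SE 0.32, adjusted p = 0.0637) and missed the threshold. Without control mouse 042301 it was 1.13 (adjusted p = 7.67e-05). With all mice it was 0.23 (adjusted p = 0.562) after rescaling and -0.05 (adjusted p = 0.907) after quantile normalization. Rescaled and without the 3 mice that stood apart, it was 0.57 (adjusted p = 0.00948). The part of these markers in the Ltbp1 level was not tested.

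**Figure D4:**
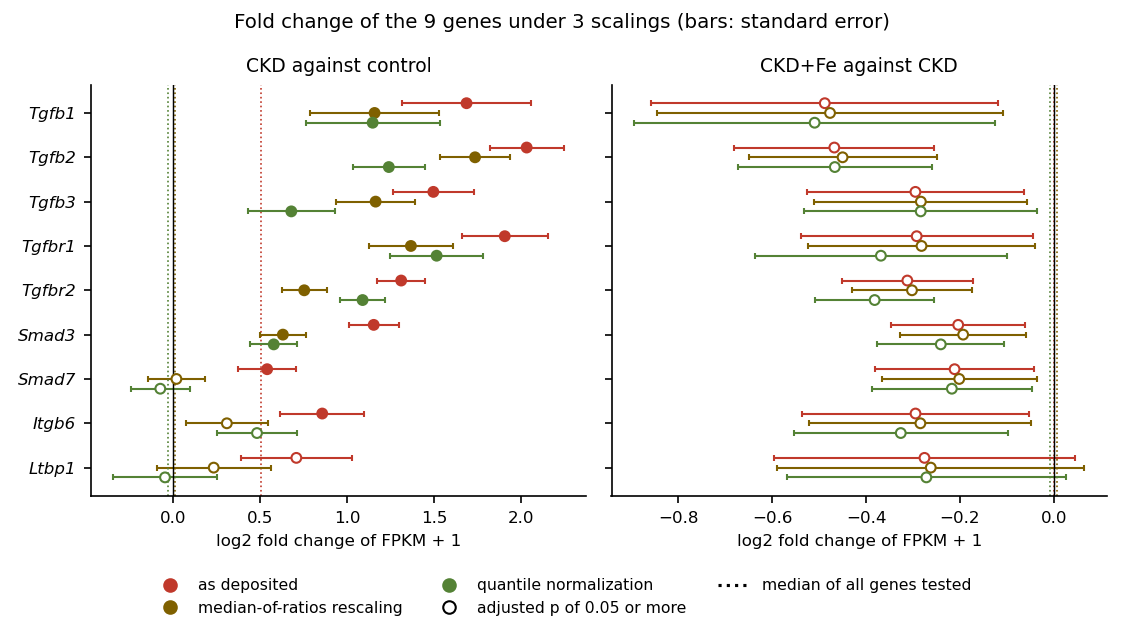
Log2 fold change of FPKM + 1 with its standard error for the 9 genes in CKD against control mice (left) and CKD+Fe against CKD mice (right), for values as deposited, after median-of-ratios rescaling and after quantile normalization. Filled points have an adjusted p under 0.05, and dotted lines give the median of all genes tested under each scaling. On the left 8, 6 and 6 points are filled, and on the right all points lie below 0 and none is filled.

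Iron dextran treatment was compared with untreated CKD. By limma none of these genes passed the threshold, with an adjusted p of 0.82 to 0.983. An unadjusted p under 0.05 was reached by Tgfbr2 (log2 fold change -0.31) and Tgfb2 (-0.47), beside 2.72% of all genes lower at that level. In this comparison 1 gene of 13132 passed the threshold (0.00761%), Fabp1, the liver-type fatty acid binding protein of the proximal tubule, with a log2 fold change of 3.30 (adjusted p = 0.0284, and 0.0571 to 0.0939 without any 1 of 7 mice), and 787 genes had an unadjusted p under 0.05 in either direction. All 9 log2 fold changes were below 0, from -0.49 for Tgfb1 to -0.20 for Smad3, with a median of -0.29, while 50.1% of all genes were below 0. In 0 of the 9 genes did the CKD+Fe mice lie wholly below the CKD mice, beside 1.08% of all genes. Means in CKD+Fe mice were 0.667 (Tgfb2) to 0.861 (Smad7) times those in CKD mice. None of the listed injured or proximal tubule markers, which do not include Fabp1, passed the threshold between these groups. The summed level of 9 injured tubule markers was 11028 to 19885 FPKM in CKD and 7960 to 14200 FPKM in CKD+Fe mice (median log2 fold change -0.62), and that of 12 proximal tubule markers was 934 to 1887 and 1030 to 2588 FPKM (median 0.40). The part of these cells in the levels of the 9 genes was not tested.

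CKD+Fe mouse 042702 had the highest CKD+Fe level of Tgfb1, Tgfb3, Tgfbr2, Smad3 and Smad7, and narrowly of Tgfb2 (4.410 against 4.407 FPKM in mouse 111710). Its sum of 14 macrophage markers was the highest in its group (3885 FPKM, with 1760 to 2840 in the other 3). So were its fibroblast (145 FPKM), T cell (36.6), podocyte (342) and endothelial (342) sums, while its proximal tubule (1030) and collecting duct (372) sums were the lowest. Among CKD mice the macrophage sum was highest in mouse 022301 (3925 FPKM), and Tgfb1 was highest in mouse 110310 (macrophage sum 2983 FPKM). The part of these cell types in the levels of the genes was not tested. With mouse 042702, CKD mouse 110310 and control mouse 042301 left out, 6 of the 9 genes (Tgfb1, Tgfb3, Tgfbr1, Tgfbr2, Smad3 and Smad7) lay wholly lower in the CKD+Fe group, beside 15% of all genes. These 3 mice were picked from the values of the same data. Of these 6 genes all but Tgfbr1 had their highest CKD+Fe value in mouse 042702. Tgfbr1 and Smad3 had their lowest CKD value in mouse 110310 (21.1 and 12.5 FPKM), which was below every CKD+Fe mouse. The separation thus follows in part from the choice of mice and is no separate evidence. Tgfb1 was then 14.1 ± 3.36 FPKM in CKD+Fe and 20.7 ± 0.996 FPKM in CKD mice (SD, n = 3), and Tgfbr2 was 37.5 ± 2.32 and 50.8 ± 2.09 FPKM. An unadjusted p under 0.05 was reached by 6 genes, beside 11.9% of all genes lower at that level, and 57% of all genes were then below 0. No gene of the 9 passed the adjusted threshold with these mice left out, and the lowest adjusted p was 0.0875 for Tgfbr2 (log2 fold change -0.43).

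CKD+Fe mice were also compared with control mice, which shares both groups with the comparisons above. Of the 9 genes 6 were higher past the threshold, beside 54.5% of all genes, and 6 did not overlap, beside 50.4%. Both counts include Tgfb2 and Tgfb3, which passed the filter only through the CKD and CKD+Fe mice. After rescaling 5 remained called (Tgfb2, Tgfb3, Tgfbr1, Tgfbr2 and Smad3), beside 27.7% of all genes, and after quantile normalization 3 (Tgfb2, Tgfbr1 and Tgfbr2), beside 19.8%. Log2 fold changes were 1.20 for Tgfb1 (adjusted p = 0.0116), 1.57 for Tgfb2 (4.12e-05), 1.20 for Tgfb3 (0.000549), 1.61 for Tgfbr1 (9.95e-05), 0.998 for Tgfbr2 (4.99e-05) and 0.95 for Smad3 (8.72e-05). Tgfb1 was not called after rescaling (0.68, adjusted p = 0.133). Smad7 (0.33), Itgb6 (0.56) and Ltbp1 (0.43) missed the threshold. Itgb6 was called without control mouse 042310 (0.815, adjusted p = 0.00312) and Ltbp1 without control mouse 042301 (0.857, adjusted p = 0.000674). Each was the highest control mouse for that gene, and no other fit with 1 mouse left out called either gene. After rescaling with all mice the values were 0.02 for Itgb6 and -0.03 for Ltbp1 (adjusted p = 0.94 for both). Of 10 alternatives other than leaving 1 mouse out, 1 called Itgb6 and 3 called Ltbp1.

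The rest of the pathway was described with 8 lists of 87 genes, of which 84 could be tested. In CKD against control mice 67 of the 84 were higher and 3 lower, beside 54.6% of all genes higher and 13.3% lower, and their median log2 fold change was 1.29 beside 0.50 for all genes. After rescaling 50 were higher and 9 lower, beside 28.7% and 29.3% of all genes. In 8 of the 84 (Ltbp2, Cd109, Grem1, Inhbb, Bmp2, the activators Itgb3 and Mmp9, and the target Twist1) no control mouse reached 1 FPKM. They passed the filter through the CKD and CKD+Fe mice and had to be higher there to be tested, and the counts of their lists include them. Of the other 76 genes 59 were higher and 3 lower, with a median of 1.26. The counts of each list are to be read against the same shares of all genes. Transcriptional targets of TGF-beta stood highest, with 20 of 20 higher and a median of 2.64, with 19 of 20 higher after rescaling, which left out Acta2, and 16 after quantile normalization. Timp1, an inhibitor of matrix metalloproteinases, was 1.99 ± 0.671 FPKM in control and 206 ± 99.0 FPKM in CKD mice (SD, n = 4). The collagen gene Col1a1 rose by 2.78 on the log2 scale (adjusted p = 6.09e-05) and the myofibroblast actin Acta2 by 1.14 (adjusted p = 0.000936).

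Of 6 other genes of the latent complex 5 were higher (4 after rescaling), among them Ltbp2 (log2 fold change 3.79) and the fibrillin Fbn1 (2.77), microfibril proteins of the matrix. Of 12 other activators 9 were higher and 1 lower, beside 54.6% and 13.3% of all genes, and the counts were the same after rescaling. The membrane protease Mmp14 (3.92) and the gelatinase Mmp2 (3.85) rose most, and Furin, which cuts the TGF-beta precursor, fell from 60.8 ± 2.40 to 43.5 ± 11.7 FPKM (log2 fold change -0.51, adjusted p = 0.0326). The Furin call was lost without any 1 of 5 mice (control 012811, 012822 or 042310, CKD 021320 or 022301), with an adjusted p of 0.061 to 0.115. Of 5 other receptors and coreceptors 4 were higher, led by the type I receptor Acvr1 (1.31) and the coreceptor Cd109 (0.92). After rescaling 2 of these 5 were higher and 1 lower, and after quantile normalization 1 was higher, beside 28.7% and 23.3% of all genes. Of 5 other Smads tested 4 were higher (3 after rescaling), led by Smad1 (1.44) and Smad5 (1.29), which serve the bone morphogenetic proteins (BMPs).

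Among 15 inhibitors 11 were higher and 1 was lower, beside 54.6% and 13.3% of all genes, and after rescaling 8 were higher and 2 lower. The small matrix proteoglycans Bgn (log2 fold change 2.08) and Dcn (1.99), which bind TGF-beta, rose, and their relative Fmod fell (-0.66, adjusted p = 0.0092). In the BMP arm 9 of 15 tested genes were higher and 1 was lower as deposited, and after rescaling 2 were higher and 4 lower. The BMP antagonist Grem1 (1.99) and the BMP target Id3 (1.06) rose as deposited, while Bmp7, a ligand of the normal tubule, fell (-0.59, adjusted p = 0.00649). In the activin arm 5 of 6 were higher as deposited, and 3 were higher and 1 lower after rescaling. The activin subunit Inhbb (2.37) and the activin antagonist Fst (1.87) had the largest deposited values. In CKD+Fe against CKD mice none of the 84 genes passed the threshold by limma, and 12 had an unadjusted p under 0.05, beside 5.99% of all genes. Of the 84 genes 69 were below 0, beside 50.1% of all genes, and the median was -0.18. Of the same 84 genes 76 were above 0 in CKD against control mice, which shares the CKD mice. The 50.1% of all genes is therefore not a like background.

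**Figure D5:**
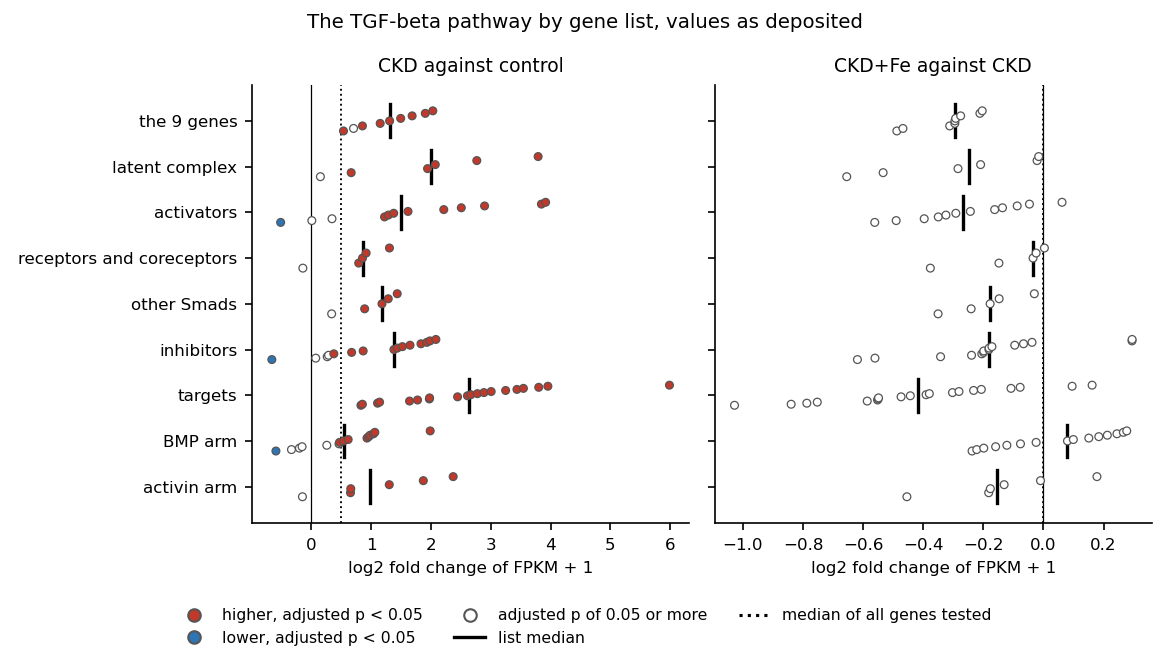
Log2 fold change of FPKM + 1 for the 9 genes and for 8 lists of other pathway genes, in CKD against control mice (left) and CKD+Fe against CKD mice (right), values as deposited. Each point is a gene, red or blue where it was higher or lower with an adjusted p under 0.05, with a bar at the list median and a dotted line at the median of all genes tested. The targets reach the highest values on the left (median 2.64), and on the right no point is colored.

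Markers of some cell types differed between the same groups. Their counts are to be read beside 54.6% of all genes higher and 13.3% lower in CKD against control mice. Of 14 macrophage markers 13 were higher in CKD against control mice, and their summed level was 143 to 276 FPKM in control, 1905 to 3925 in CKD and 1760 to 3885 in CKD+Fe mice. All 8 fibroblast and all 9 injured tubule markers were higher, with sums of 22.4 to 25.6 against 84.1 to 170 FPKM and of 517 to 857 against 11028 to 19885 FPKM. Of 12 proximal tubule markers 11 were lower, with sums of 5552 to 8038 FPKM in control and 934 to 1887 in CKD mice. No marker of these 4 lists was at 0 in any mouse. Of the other lists, 6 of 7 T cell, 2 of 5 podocyte and 1 of 8 urothelial markers tested were higher and 0 lower. For the endothelium 0 of 8 were higher and 1 lower, and for the collecting duct 0 of 7 were higher and 2 lower. Adgre1, which encodes the macrophage protein F4/80, was 1.54 to 3.53 FPKM in control and 18.2 to 36.7 FPKM in CKD mice, and Lrp2, the endocytic receptor megalin of the proximal tubule, was 92.2 ± 29.5 and 29.1 ± 10.9 FPKM (SD, n = 4). In whole tissue a change in the number of cells of a type and a change in RNA per cell cannot be told apart.

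The genes whose pattern over the 12 mice was most like that of each ligand were found by the mean absolute difference between log2(FPKM + 1) values centered on the mean of each gene. Closest to Tgfb1 were Pdgfb, Tgfb1i1 and Bcl3 (differences of 0.192, 0.198 and 0.1998). Closest to Tgfb2 were Map4k4, Ptgfrn and Cttnbp2nl (0.154, 0.158 and 0.169), and closest to Tgfb3 were Rtn4rl2, Pacs1 and Rcc2 (0.111, 0.130 and 0.132). These lists shared no gene, but each holds only 3 of the 13132 genes tested. The lack of a shared gene therefore does not show that the ligands had distinct patterns.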

How the data were processed

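Kidney RNA of 12 mice was sequenced by the authors from stranded mRNA libraries (single-end reads, HiSeq4000). Per the labels, the submitters' processing notes name bcl2fastq 2.19, STAR 2.5.2, Cufflinks 2.1.1 and the GRCm38 build. The authors deposited FPKM values of 22053 gene rows (22007 identifiers), 1 per gene and mouse. FPKM are relative to the total of each mouse and are not counts, so the depth in reads is unknown, no counting interval can be given, and the study's DESeq2 test was not repeated. The status column marked 30 values in 17 rows as failed, and those rows were left out. Locus starts, which count from 0, were moved by 1. Of the 21810 rows whose identifier is in GENCODE M21, 99.9% overlapped the position of that gene, and in 77.1% both start and end matched.

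The 13132 genes that reached 1 FPKM in 4 or more mice entered limma (version 3.58.1, R 4.3.3) as log2(FPKM + 1), all 12 mice in 1 fit with a variance trend, two-sided, with Benjamini-Hochberg adjustment and a threshold of 0.05. Shares and ratios were compared by exact permutation of 4 mice against 4 (70 arrangements), adjusted over 15 tests. The fit was tested on simulated data. The members, the pathway and marker lists and the tests were chosen with earlier results of these data known. The genes named were the 9 members, the 2 largest rises and falls of each pathway list in CKD against control mice, any gene past the threshold in CKD+Fe against CKD mice, 4 single markers, and the 3 genes nearest to each ligand. The values of 1 gene named by this rule are not reported here. RGD codons were searched in GENCODE M21 transcripts and 4 motifs in RefSeq promoters, where 7 of the 9 members were matched and searched. Alternatives were another pseudocount, other filters, rescaling, quantile normalization, only the 2 groups compared, quality weights, no trend, an adjusted threshold of 0.5 (the cutoff in the study's sequencing methods), each mouse left out, and 3 mice left out together. Mice were assigned to groups by their labels. Each mouse gave 1 library.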

Additional observations from a re-analysis of the deposited data

Results flagged for a closer look

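Values far from the other 3 mice of their group were found in 4 of 42 groups screened (the gap to the nearest mouse, over the range of the group, was past Dixon's critical value). The 42 groups share genes and mice and are not independent, so no rate by chance is set beside the 4. Tgfb1 was 52.4 FPKM in CKD mouse 110310 and 19.6 to 21.3 FPKM in the other CKD mice. Tgfb3 was 5.52 FPKM in CKD+Fe mouse 042702 and 2.34 to 2.82 FPKM in the others. Ltbp1 was 11.4 FPKM in control mouse 042301 and 2.70 to 2.97 FPKM in the others. The share of Tgfb3 among the ligands was 5.51% in control mouse 042301 and 9.97% to 10.7% in the other control mice. These are the 3 mice with the lowest quality weights, which were computed from the same expression values.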

How the results depend on the processing

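In CKD against control mice, the calls of Tgfb1, Tgfb2, Tgfb3, Tgfbr1, Tgfbr2 and Smad3 held under every alternative that could be run for them. The sign turned for Smad7 (-0.076 after quantile normalization, -0.019 after rescaling without the 3 mice apart, an alternative added after the data were seen) and for Ltbp1 (-0.049 after quantile normalization). In CKD+Fe against control mice it turned for Smad7 (-0.185 after rescaling, -0.293 after quantile normalization, -0.255 after rescaling without the 3 mice) and for Ltbp1 (-0.031 and -0.32). Quantile normalization left 3 of the 9 genes and 42 pathway genes higher in that comparison. The causes were not tested.

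Pathway genes called lower in CKD against control mice were 9 after rescaling, 6 after quantile normalization, 13 after rescaling without the 3 mice and 6 at an adjusted p under 0.5. In CKD+Fe against control mice they were 9, 6, 12 and 5, and 4 with quality weights. In CKD+Fe against CKD mice they were 2 with quality weights and 2 at 0.5. Of all genes in CKD against control mice, 3774 were higher and 3850 lower after rescaling, 3054 and 3357 after quantile normalization, 4483 and 4449 after rescaling without the 3 mice, and 2675 lower at 0.5. In CKD+Fe against control mice these were 3631 and 3612, 2600 and 2961, 4112 and 4115, and 2382, with 4741 higher at a mean of 5 FPKM or more. In CKD+Fe against CKD mice 0 genes were higher with a pseudocount of 0.1, with no filter or with the 2 groups alone. There 79 were higher and 56 lower with quality weights, 51 and 33 without the 3 mice, 36 and 7 after rescaling as well, 92 and 72 at 0.5, and 1 lower with no variance trend.

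With 1 mouse left out at a time, all genes higher in CKD+Fe against CKD mice numbered 0 to 9 and lower 0 to 4, and pathway genes lower in CKD+Fe against control mice numbered 1 to 2. The difference in Tgfb1 share was -14.9 to -8.64 percentage points in CKD against control, -3.22 to 3.07 in CKD+Fe against CKD and -14.4 to -9.25 in CKD+Fe against control mice. That in Tgfb2 share was 7.19 to 12.4, -3.67 to 1.49 and 7.05 to 10.6, and that in Tgfb3 share 1.97 to 3.80 in CKD+Fe against control mice. The difference in the log2 ratio of Tgfbr2 to Tgfbr1 was -0.96 to -0.48, -0.21 to 0.27 and -0.87 to -0.51, and in that of Smad7 to Smad3 -0.86 to -0.54, -0.13 to 0.18 and -0.79 to -0.56. Without the 3 mice, CKD+Fe minus CKD was 0.489 points for the Tgfb1 share, 0.083 for the receptor ratio and 0.073 for the Smad ratio. No paired analysis was possible because the groups share no replicate numbers.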
